A study of Mus musculus with 16 samples.

Results

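Endothelial-to-mesenchymal transition is the process in which endothelial cells loosen their junctions and take on features of mesenchymal cells, with more matrix and a changed cytoskeleton. It is driven by a small set of transcription factors of the Snail, ZEB and Twist families, which bind E-boxes in DNA and in many settings lower junctional genes such as Cdh5, the cadherin of endothelial junctions. Gain of Cdh2, Fn1, Vim and S100a4 is commonly read as its mesenchymal side, although Vim and Fn1 are also made by ordinary endothelial cells, in culture in particular.

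The 10 genes described here are 5 transition factors (Snai1, Snai2, Twist1, Zeb1, Zeb2), 2 cadherins (Cdh2, Cdh5) and 3 mesenchymal genes (Fn1, Vim, S100a4). They were found by symbol among the 39057 gene identifiers of the count table, a rule that uses no measured value, although the list was drawn up with earlier results of these data known. All 10 were in the table, and 8 of them had enough reads to be tested. Twist1 and S100a4 did not pass the filter on low counts.

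RNA came from 16 primary cultures of cortical brain endothelium. Mice of the *APOE3* and of the *APOE4* line gave 8 cultures each. Both are targeted replacement lines, which carry a human APOE isoform under the mouse promoter in every cell that uses it. Each genotype had 4 male and 4 female cultures, each grown from the cortex of 1 mouse of 21 to 28 days, and no culture received a drug treatment other than the selection with puromycin at 8 μg/ml that all shared. The wells were coated with fibronectin, collagen and laminin, so the cells met the protein product of Fn1 whatever they made themselves. The comparison asks whether the APOE genotype of the cells goes with their own transcript levels. Total counts on genes ran from 12717847 to 18624417 per library, and log2 totals did not separate the genotypes (exact permutation test over 12870 assignments, two-sided, p = 0.758). The 14 markers of brain endothelium all had enough reads to be tested. Of them 10 had estimates lower and 4 higher with *APOE4*, and 3 were called lower (21.4%, beside 6.09% of all genes tested). Pecam1, for one, was at a mean of 3624 CPM in *APOE3* and 3646 CPM in *APOE4* libraries, where CPM stands for counts scaled to a normalized library size of 1e6. Markers of other brain cells were low but not absent. The 8 astrocyte markers summed to 32.1 to 43.6 CPM, of which Gja1 alone made 30.0 to 40.2 CPM, and the 6 neuron markers to 10.9 to 18.7 CPM, of which Tubb3 made 7.78 to 12.6 CPM. Counts of Dpt, P2ry12, Itgam, Olig1 and Olig2 were 0 in every library, and Gfap reached 6 counts at most. Contractile genes that endothelial cultures can share with mural cells were present, with Tagln at 161 CPM in *APOE3* and 178 CPM in *APOE4* libraries.

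The transition genes spanned several orders of magnitude. Levels between genes are compared as RPKM, CPM divided by the length of the annotated exons in kilobases, as the mean ± SD of the 16 libraries. That length joins the exons of all annotated transcripts of a gene, whichever of them the cells used. The order between genes therefore depends on the annotation. Fn1, which encodes the matrix protein fibronectin, stood at 1459 ± 271 RPKM and was the gene with the most counts of all, taking 1.27% to 2.29% of a library. Vim, the intermediate filament vimentin, followed at 848 ± 54.4 RPKM, and Cdh5, the vascular endothelial cadherin, at 817 ± 34.9 RPKM. Vim was above Cdh5 in 14 of 16 libraries. With exon lengths of 4743 bases for Vim and 4203 for Cdh5, their closeness rests on the lengths taken.

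Every transition factor lay far below these 3 genes. Zeb1, a zinc finger repressor with paired DNA-binding clusters, was the highest of them at 19.0 ± 1.14 RPKM. Cdh2, neural cadherin, came next at 10.1 ± 0.517 RPKM and Snai1 at 8.39 ± 1.09 RPKM, and Cdh2 was above Snai1 in 15 of 16 libraries. Snai2, the relative of Snai1 also called Slug, was at 3.85 ± 0.898 RPKM, and Zeb2 at 1.10 ± 0.146 RPKM, each above its lower neighbour in all 16 libraries. Without division by length the order differed, with means of 21.9 CPM for Zeb2, 13.6 for Snai1 and 7.78 for Snai2. Twist1 and S100a4 were at 0.402 ± 0.246 and 0.348 ± 0.335 RPKM, and Twist1 was above S100a4 in 8 of 16 libraries, so their order is not set by these data.

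**Figure D1:**
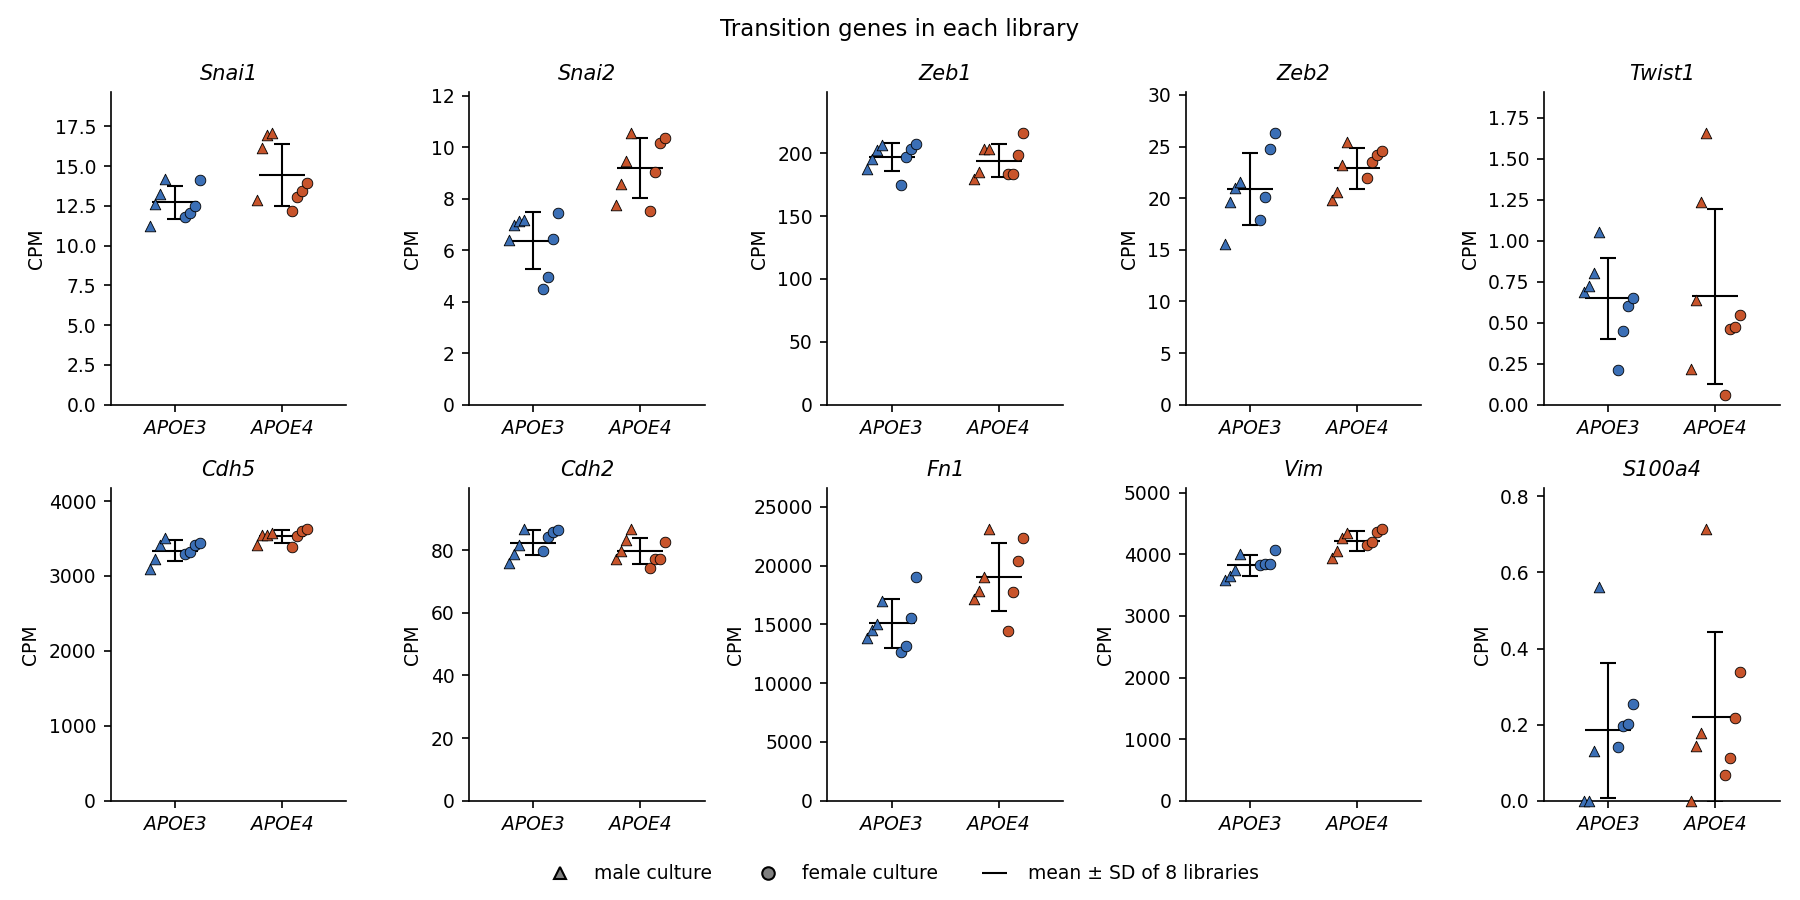
Level of each transition gene in CPM (linear axes from 0, a scale of its own per gene) in the 8 *APOE3* and 8 *APOE4* libraries, with triangles for male and circles for female cultures and bars for the mean ± SD of 8 libraries. The *APOE4* points of Snai2 (7.54 to 10.6 CPM) lie above every *APOE3* point (4.49 to 7.46 CPM), and no other gene separates the genotypes in full.

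Snai2, Vim and Fn1 were higher in *APOE4* than in *APOE3* brain endothelial cells, and the other 5 tested transition genes did not pass the threshold. The test was edgeR's quasi-likelihood F test on 12481 genes, p-values carry the Benjamini-Hochberg adjustment across that whole set, and a gene with an adjusted p under 0.05 is called. Of the 8 transition genes tested 3 were called, all of them higher with *APOE4*. Over all genes tested, 12.8% were called in either direction and 6.71% were called higher with *APOE4*. Log2 fold changes are of *APOE4* over *APOE3* and are followed by ± their standard error (SE), while ± after a level in CPM is the SD over the libraries of a group. The SE was derived from the test, as the absolute log2 fold change divided by the square root of F. The median log2 fold change over all genes tested was -0.00022. In bulk RNA, more cells of a type and more RNA per cell cannot be told apart.

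Snai2 (ENSMUSG00000022676.6, GRCm38 chromosome 16 from 14705852 to 14709385, plus strand, 3 exons) had the largest change of the 8 tested transition genes. *APOE3* libraries ran from 4.49 to 7.46 CPM with a median of 6.71, and *APOE4* libraries from 7.54 to 10.6 CPM with a median of 9.26. Every *APOE4* library was thus above every *APOE3* library, which held for 0.256% of all genes tested. The means were 6.38 ± 1.09 and 9.19 ± 1.17 CPM (SD, n = 8 each), a 1.44-fold difference (log2 fold change 0.52 ± 0.107, adjusted p = 0.00748). These levels rest on 67 to 187 reads per library, so Snai2 remained a low transcript in both genotypes. The call was kept in all 16 fits with 1 library left out, with an adjusted p of at most 0.0208.

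Snai1 (ENSMUSG00000042821.7, GRCm38 chromosome 2 from 167538195 to 167542814, plus strand, 3 exons), the Snail factor best known for repressing cadherin genes, did not pass the test. Its *APOE3* libraries ran from 11.2 to 14.2 CPM with a median of 12.6, and its *APOE4* libraries from 12.2 to 17.1 CPM with a median of 13.7. The genotypes overlapped, and only *APOE4* male cultures (3 of 4) exceeded the highest *APOE3* library. The log2 fold change was 0.18 ± 0.0803 (adjusted p = 0.132).

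The balance between both Snail genes was also compared as a ratio within each library. The log2 ratio of Snai2 to Snai1 averaged -0.998 ± 0.293 over *APOE3* libraries and -0.647 ± 0.275 over those of *APOE4* (SD, n = 8 each), a difference of 0.351 (exact permutation test, two-sided, p = 0.0269). The ratio ran from -1.49 to -0.655 in *APOE3* and from -1.13 to -0.230 in *APOE4* libraries, so the genotypes overlapped. Of the 16 comparisons that each left out 1 library, 12 kept this call. It was lost without *APOE3* replicate 32 or 33 or *APOE4* replicate 40 or 41, with p up to 0.0538. All of these are female cultures. In male libraries the ratio ran from -0.969 to -0.799 with *APOE3* and from -1.13 to -0.582 with *APOE4*. In female libraries it ran from -1.49 to -0.655 and from -0.822 to -0.230, so the shift lay mostly in females. A difference between the sexes was not tested for this ratio.

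Snai1 is shown with the bases before its start because Snail and ZEB factors bind the E-box CAGGTG, read as CACCTG on the other strand, and Snail factors are known to act on their own genes. Vim is shown as the called gene for which a promoter was at hand. Both sequences are from RefSeq (GRCm38.p6), on the plus strand, 250 bases up to the annotated start, at chr2:167537945-167538194 for Snai1 and chr2:13574061-13574310 for Vim. The RefSeq start of Vim lies past the gene start of 13573927 used for it elsewhere here. The printed Vim bases thus fall inside that gene span. Capitals mark CAGGTG or CACCTG.
Snai1: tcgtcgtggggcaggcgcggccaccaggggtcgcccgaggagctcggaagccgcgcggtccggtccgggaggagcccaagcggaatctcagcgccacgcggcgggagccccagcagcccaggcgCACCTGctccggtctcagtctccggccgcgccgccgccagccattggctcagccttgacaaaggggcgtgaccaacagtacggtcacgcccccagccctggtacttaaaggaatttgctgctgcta
Vim: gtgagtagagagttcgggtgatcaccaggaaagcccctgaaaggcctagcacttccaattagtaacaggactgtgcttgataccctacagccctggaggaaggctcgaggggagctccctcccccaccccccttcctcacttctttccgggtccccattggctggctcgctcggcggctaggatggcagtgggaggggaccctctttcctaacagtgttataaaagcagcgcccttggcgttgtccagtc
The Snai1 stretch holds CACCTG at position -126 from the start, and no other letters of the wider form CANNTG. In windows of 300 bases, from 250 before to 50 after the start, 20.2% of 32851 promoters held CAGGTG or CACCTG and 72.3% held any CANNTG. The window of Vim held 0 matches to either form, and so did those of Twist1, S100a4 and Zeb2. Of the 10 transition genes 5 had an entry in the promoter table. A match of letters describes the sequence and is not a measured binding site.

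The ZEB factors did not pass the test. Zeb1 (ENSMUSG00000024238.13, chromosome 18) ran from 175 to 207 CPM in *APOE3* libraries, with a median of 199.5, and from 179 to 216 CPM in *APOE4* libraries, with a median of 192. The ranges nearly coincided, and the log2 fold change was -0.02 ± 0.0432 (adjusted p = 0.812). With an SE of this size, the Zeb1 estimate is among the most precise of the transition factors.

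Zeb2 (ENSMUSG00000026872.17, GRCm38 chromosome 2 from 44983632 to 45117395, minus strand) ran from 15.6 to 26.3 CPM in *APOE3* libraries, with a median of 20.6, and from 19.8 to 25.4 CPM in *APOE4* libraries, with a median of 23.4. Of the *APOE4* libraries 7 of 8 were above the *APOE3* median, but none was above the *APOE3* maximum. Its log2 fold change was 0.14 ± 0.0869 (adjusted p = 0.315). The antisense gene Zeb2os shares 3.27% of the exon bases of Zeb2 and was not among the counted genes.

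Twist1 (ENSMUSG00000035799.5, GRCm38 chromosome 12 from 33957671 to 33959829), a basic helix-loop-helix factor of mesoderm and mesenchyme, had 1 to 28 reads per library. *APOE3* libraries ran from 0.211 to 1.05 CPM with a median of 0.669, and *APOE4* libraries from 0.0562 to 1.66 CPM with a median of 0.508. The widest values were in *APOE4* male cultures, which held both 0.216 and 1.66 CPM. With no filter on low counts its log2 fold change was 0.03 ± 0.410 (unadjusted p = 0.945 by edgeR's quasi-likelihood test across all genes), so a difference of moderate size was not detectable at this depth.

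The cadherins did not show the switch from Cdh5 to Cdh2 that goes with this transition in textbooks. Cdh5 (ENSMUSG00000031871.9, GRCm38 chromosome 8 from 104101625 to 104144511, plus strand) ran from 3088 to 3503 CPM in *APOE3* libraries, with a median of 3368, and from 3392 to 3630 CPM in *APOE4* libraries, with a median of 3548. All 8 *APOE4* libraries were above the *APOE3* median and 6 were above the *APOE3* maximum. The means were 3338 ± 136 and 3529 ± 83.4 CPM, a log2 fold change of 0.08 ± 0.0287 that did not pass the threshold with edgeR (adjusted p = 0.0689). DESeq2's Wald test put it past the threshold (adjusted p = 0.0297), and the adjusted p over the 6 alternatives without a cell cycle term was 0.0297 to 0.207.

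Cdh2 (ENSMUSG00000024304.14, chromosome 18) ran from 75.8 to 86.8 CPM in *APOE3* libraries, with a median of 82.9, and from 74.4 to 86.8 CPM in *APOE4* libraries, with a median of 78.5. The genotypes overlapped over almost the whole range, with a log2 fold change of -0.05 ± 0.0376 (adjusted p = 0.442). Within libraries, Cdh2 was a small part of the cadherin message in both genotypes. The log2 ratio of Cdh2 to Cdh5 averaged -5.34 ± 0.115 over *APOE3* libraries and -5.47 ± 0.0871 over those of *APOE4*, a difference of -0.128 (exact permutation test, two-sided, p = 0.0272). The ratio was therefore lower with *APOE4*, the opposite direction to a gain of Cdh2 over Cdh5. It kept this call in 13 of 16 comparisons that each left out 1 library, and lost it without *APOE3* replicate 26 or 33 or *APOE4* replicate 43, with p up to 0.0544. In male libraries the ratio ran from -5.53 to -5.15 with *APOE3* and from -5.52 to -5.30 with *APOE4*, a wide overlap. In female libraries it ran from -5.43 to -5.25 and from -5.59 to -5.45. A difference between the sexes was not tested for this ratio.

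Among the mesenchymal genes, Fn1 (ENSMUSG00000026193.15, GRCm38 chromosome 1 from 71585520 to 71653200, minus strand, 17 annotated transcripts) was higher with *APOE4*. *APOE3* libraries ran from 12631 to 19010 CPM with a median of 14792, and *APOE4* libraries from 14462 to 23141 CPM with a median of 18420. Of the *APOE4* libraries 7 of 8 were above the *APOE3* median and 4 were above the *APOE3* maximum. The means were 15086 ± 2098 and 19022 ± 2867 CPM, a 1.26-fold difference (log2 fold change 0.33 ± 0.0886, adjusted p = 0.0200). All 16 fits with 1 library left out kept the call, with an adjusted p of at most 0.0494. Counts per gene do not tell apart the splice forms of Fn1, which include forms with extra domains.

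Vim (ENSMUSG00000026728.9, GRCm38 chromosome 2 from 13573927 to 13582826, plus strand) was higher with *APOE4* by a small and even amount. *APOE3* libraries ran from 3588 to 4075 CPM with a median of 3834, and *APOE4* libraries from 3948 to 4416 CPM with a median of 4233. All 8 *APOE4* libraries were above the *APOE3* median and 6 were above the *APOE3* maximum. The means were 3822 ± 166 and 4218 ± 160 CPM, a 1.10-fold difference (log2 fold change 0.14 ± 0.0318, adjusted p = 0.00983). The adjusted p was at most 0.0259 over the 16 fits with 1 library left out. Among the genes called over the whole table the median absolute log2 fold change was 0.26, so Vim was a smaller and Snai2 a larger change than that.

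S100a4 (ENSMUSG00000001020.8, GRCm38 chromosome 3 from 90603771 to 90606045, plus strand), a calcium-binding protein also called fibroblast-specific protein, was at or near the floor. Counts were 0 to 9 in both genotypes, with 0 in 2 *APOE3* and 1 *APOE4* male cultures, and a floor of 3 counts corresponded to 0.163 to 0.238 CPM. *APOE3* libraries had a median of 0.168 CPM and a maximum of 0.562, and *APOE4* libraries a median of 0.161 CPM and a maximum of 0.715. The highest library of each genotype was male and stood well apart from the rest. With no filter its log2 fold change was 0.19 ± 0.646 (unadjusted p = 0.768 by edgeR's quasi-likelihood test across all genes). Of its exon bases 51.7% are shared with Gm42674 on the same strand, which had 0 counts in every library, so reads there may have gone uncounted for both genes.

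**Figure D2:**
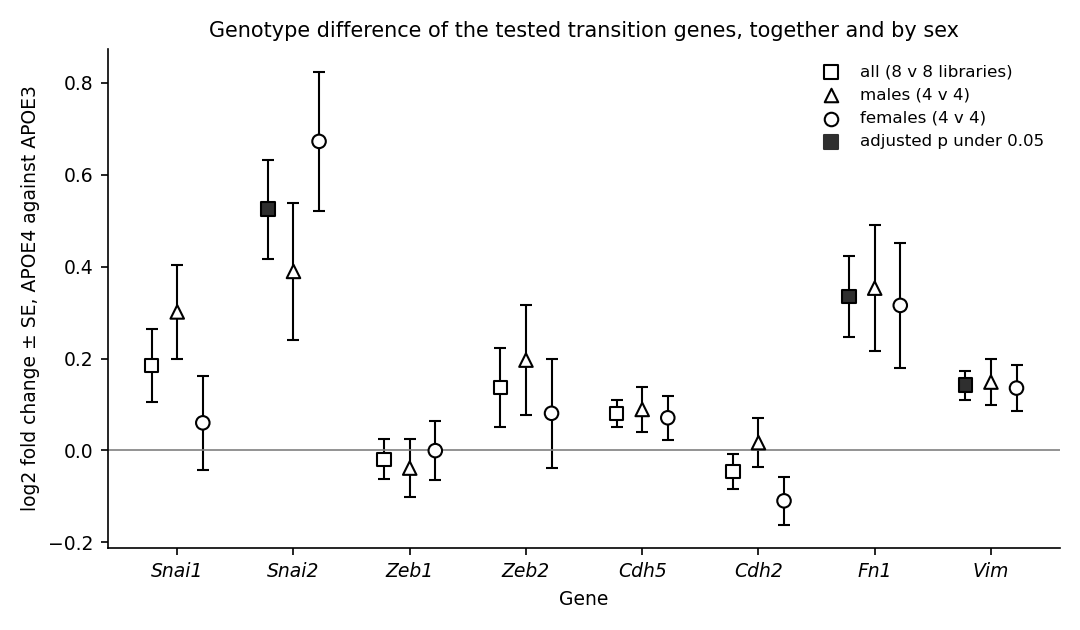
Log2 fold change ± SE of *APOE4* over *APOE3* for the 8 tested transition genes, in all 16 libraries (squares), in males (triangles) and in females (circles). Filled symbols mark an adjusted p under 0.05 and are Snai2, Fn1 and Vim in all libraries, at 0.52, 0.33 and 0.14.

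Both sexes showed the same direction for Snai2, Fn1 and Vim, in 1 fit of 4 groups. With 4 libraries a group, Snai2 was at 6.92 ± 0.359 against 9.09 ± 1.21 CPM in males (log2 fold change 0.39 ± 0.149) and at 5.84 ± 1.37 against 9.29 ± 1.30 CPM in females (0.67 ± 0.151). Fn1 had log2 fold changes of 0.35 ± 0.136 in males and 0.32 ± 0.136 in females. Vim had 0.15 ± 0.0504 and 0.14 ± 0.0504. Snai2 did not overlap between genotypes in either sex, Fn1 did not in males and Vim did not in females. That is 2 of 8 tested transition genes higher without overlap in each sex, where 4.22% of all genes tested were in males and 4.59% in females.

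No gene of the whole table, and so no transition gene, was called within a sex or for a difference between the sexes. With 4 libraries against 4, edgeR called 0.0% of genes in males (0 of 12481, 1775 at an unadjusted p under 0.05), 0.0% in females (0, 2428 unadjusted) and 0.0% for the difference of the genotype effect between the sexes (0, 345 unadjusted), and DESeq2 was not run on these comparisons. Among the tested transition genes, Snai2 in females came closest, with an adjusted p of 0.0608. It passed without a filter on low counts (adjusted p = 0.0145), and it passed without *APOE3* replicate 31 (adjusted p = 0.0131) or *APOE4* replicate 35 (adjusted p = 0.0393). Snai1 had a log2 fold change of 0.30 ± 0.102 in males and of 0.06 ± 0.103 in females, and the difference between the sexes was -0.24 ± 0.144 (adjusted p = 1.0). Cdh2 had log2 fold changes of 0.02 ± 0.0530 in males and -0.11 ± 0.0530 in females, with a difference of -0.13 ± 0.0749.

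Between male and female cultures no tested transition gene was called, where 9 genes were called over the table (0.0721%, with 550 at an unadjusted p under 0.05). The largest difference among those tested was that of Snai1, with a log2 fold change of females against males of -0.14 ± 0.0755 (unadjusted p = 0.0730 by edgeR's test across all genes). Twist1, tested with no filter on low counts, was lower in female cultures by that test before adjustment (log2 fold change -1.03 ± 0.366, unadjusted p = 0.00810, adjusted p = 0.836). Its means were 0.817 CPM in *APOE3* and 0.936 CPM in *APOE4* males, against 0.478 and 0.384 CPM in females.

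Other genes of the transition were read from lists. Of 29 other factors linked to mesenchymal change, 21 were tested and 0 were called, beside 12.8% of all genes tested. They had 5 at an unadjusted p under 0.05 and a median log2 fold change of -0.06. Of the estimates 5 were positive and 16 negative. Tcf4, an E-protein that pairs with Twist factors, was at 847 and 833 CPM, and Id1 and Id3, which bind E-proteins and keep them from DNA, were at 353 and 314 CPM and at 345 and 309 CPM (adjusted p = 0.288 and 0.119). These 3 genes were named after their values were seen. The largest estimate was that of Foxc2, a forkhead factor of lymphatic and mesenchymal development, with a log2 fold change of 0.60 ± 0.300 (adjusted p = 0.188) at 7 to 41 counts. Of 12 epithelial genes and repressors of the transition only Esrp2 and Krt19 had enough reads to be tested, and neither was called. DESeq2's Wald test called none of either list, but gave no adjusted p for Esrp2.

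Of 40 mesenchymal and matrix genes 37 were tested, and 7 were called higher and 0 lower. That is 18.9% called higher, beside 6.71% of all genes tested. Estimates were positive for 32 of the 37 (86.5%, beside 49.9% of all genes), and their median was 0.21. Fbln1, the matrix protein fibulin-1 that binds fibronectin, rose from 11.5 ± 3.27 to 21.5 ± 4.83 CPM (log2 fold change 0.90 ± 0.159, adjusted p = 0.00542), and all 8 *APOE4* libraries were above the *APOE3* median. Spp1, the secreted protein osteopontin, rose from 15.3 ± 2.18 to 28.0 ± 11.7 CPM (0.88 ± 0.190, adjusted p = 0.00868). Itgb1, the beta-1 subunit of the integrins that bind fibronectin, rose from 1183 ± 83.5 to 1325 ± 44.9 CPM (0.16 ± 0.0403, adjusted p = 0.0143).

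Of the collagen genes on the list only Col5a2 was called. Col5a2, a fibrillar collagen chain, rose from 30.6 ± 5.53 to 40.1 ± 6.88 CPM (log2 fold change 0.39 ± 0.110, adjusted p = 0.0258), and 11 of the 16 fits with 1 library left out kept this call. Col3a1 had the largest estimate of the list, 1.06 ± 0.395, at 1.79 ± 1.43 and 3.76 ± 2.11 CPM, and was not called (adjusted p = 0.0786). Col1a1, the main collagen of fibroblasts, had a log2 fold change of -0.02 ± 0.400. The smooth muscle actin gene Acta2, a usual readout of this transition, was at 83.8 CPM in *APOE3* and 80.3 CPM in *APOE4* libraries (log2 fold change -0.06 ± 0.102, adjusted p = 0.737). Acta2 and Col1a1 were 2 of the 5 tested genes of the list with a negative estimate. Other contractile genes had positive estimates that were not called, with 0.41 for Cald1 (adjusted p = 0.0510), 0.33 for Myl9, 0.26 for Tpm2, 0.42 for Cnn1 and 0.14 for Tagln, and so did Col1a2 (0.33). These 8 genes were named after their values were seen.

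**Figure D3:**
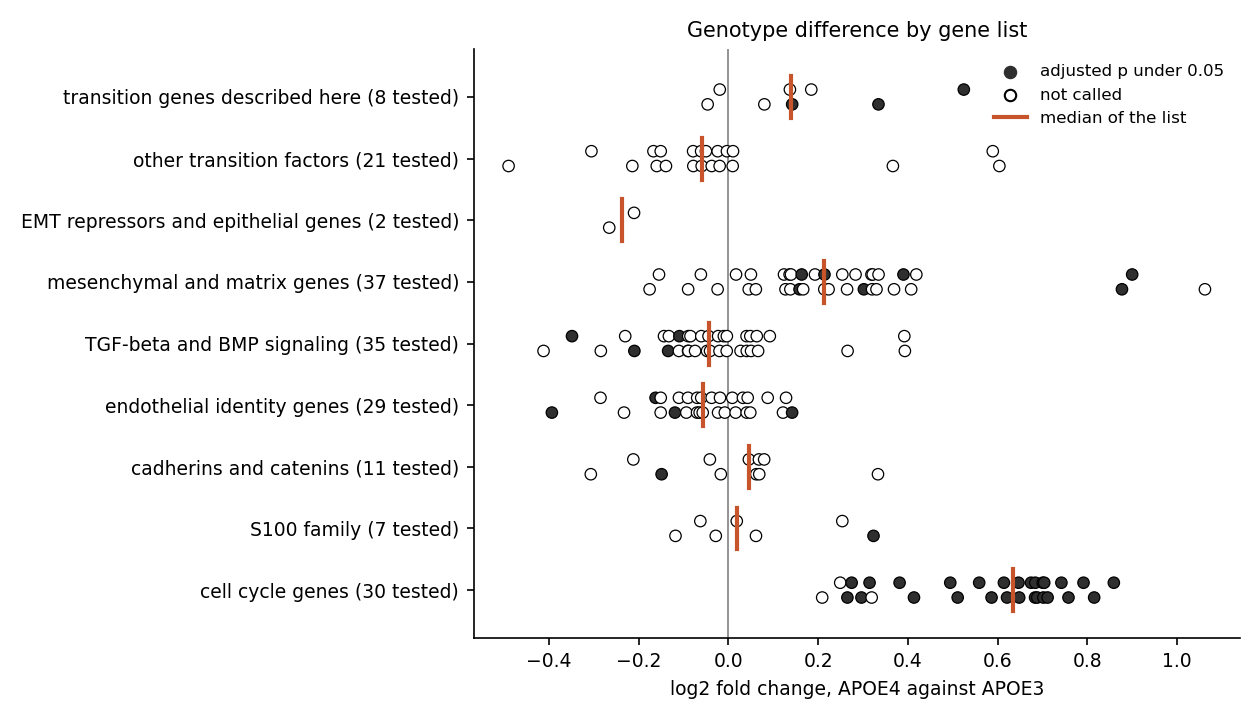
Log2 fold change of *APOE4* against *APOE3* for each tested gene of the transition genes and 8 related lists, with filled points for an adjusted p under 0.05 and a bar for the median of the list. Mesenchymal and matrix genes have a median of 0.21 and cell cycle genes of 0.63, and the other lists lie closer to 0 except the 2 tested epithelial genes.

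TGF-beta and BMP ligands, receptors and Smads, the signals best known for inducing Snail and ZEB factors, gave no call higher with *APOE4*. Of 36 genes 35 were tested, 0 were called higher and 4 lower, and the median was -0.04 in log2 fold change. The share called was 11.4%, near the 12.8% of all genes, while 6.09% of all genes were called lower. DESeq2's Wald test called 7 of the list, among them Acvrl1 and Smad1, lower, and Ltbp1, higher, which edgeR did not call. The genes that fell were the activin receptor Acvr2b (-0.35 ± 0.104, adjusted p = 0.0331), the co-receptor Tgfbr3 (-0.21 ± 0.0663, adjusted p = 0.0421), and the signal transducers Smad4 (-0.11 ± 0.0339, adjusted p = 0.0387) and Smad3 (-0.13 ± 0.0437, adjusted p = 0.0478). These calls were close to the threshold and were kept in 8, 7, 6 and 3 of the 16 fits with 1 library left out. Inhbb, an activin subunit, had the largest estimate, -0.41 ± 0.185 (adjusted p = 0.143). Estimates were positive for 11 and negative for 24 of the 35. Among the positive ones was the ligand Tgfb2, at 44.1 and 57.9 CPM, which was not called (0.39 ± 0.137, adjusted p = 0.0631). Tgfb2 was named after its values were seen.

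Endothelial identity genes fall in a full transition. All 29 were tested, with 10 estimates positive and 19 negative, 1 called higher, 3 called lower and -0.06 as the median log2 fold change. The share called in either direction was 13.8%, near the 12.8% of all genes. Called lower were 10.3%, beside 6.09% of all genes, and called higher 3.45%, beside 6.71%. DESeq2's Wald test called 8 of them, adding Nos3 (adjusted p = 0.0292), Tek (0.0379), Klf2 (0.0388) and Sox17 (0.0401), all lower with *APOE4*. Emcn, a sialomucin of capillary and venous endothelium, rose (0.14 ± 0.0324, adjusted p = 0.0106). Klf4, a flow-responsive factor, fell from 70.9 ± 10.5 to 54.0 ± 8.62 CPM (-0.39 ± 0.0955, adjusted p = 0.0135), as did Egfl7, a secreted endothelial protein (-0.16 ± 0.0351, adjusted p = 0.00835), and Robo4, an endothelial guidance receptor (-0.12 ± 0.0321, adjusted p = 0.0214). Pecam1 had a log2 fold change of 0.01 ± 0.0290 and Cldn5, the main claudin of the barrier, of -0.07 ± 0.0345, and neither passed the test. Both were named after their values were seen.

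In the families of the named members, single genes were called. Of 17 other cadherins and catenins 11 were tested, and only Pkp4, a plakophilin relative that binds cadherins, was called, lower with *APOE4* (-0.15 ± 0.0372, adjusted p = 0.0150), while DESeq2's Wald test also called Ctnnb1, beta-catenin (adjusted p = 0.0153), higher. Genes given for this Wald test alone were named after their values were seen. Of 13 S100 genes 7 were tested, and S100a11, an abundant relative of S100a4, rose from 278 ± 25.7 to 348 ± 34.2 CPM (0.32 ± 0.0608, adjusted p = 0.00608). The share called was 9.09% of the tested cadherins and catenins and 14.3% of the tested S100 genes. Both lie near the 12.8% of all genes tested.

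Cell cycle genes had the largest median change of the lists, and the levels of several transition genes followed theirs across libraries. Of 30 cell cycle genes all were tested, 27 were called higher and 0 lower, and the median was 0.63 in log2 fold change. That is 90.0% called higher, beside 6.71% of all genes tested. Mki67, the proliferation antigen Ki-67, rose from 255 ± 69.6 to 410 ± 80.5 CPM (0.68 ± 0.146, adjusted p = 0.00824), and Hmmr, a spindle protein, had the largest estimate (0.86 ± 0.170, adjusted p = 0.00649). The mean log2 CPM of the 30 genes is here called the cell cycle score. It averaged 5.60 ± 0.338 in *APOE3* libraries and 6.18 ± 0.267 with *APOE4* (exact permutation test, two-sided, p = 0.00171). The paper measured proliferation by bromodeoxyuridine staining and found no genotype difference at confluence, nor any in cell density. Those are measures on cells and not on RNA. From its RNA data the paper proposes that *APOE* modulates, among other categories, cell cycle and differentiation.

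After the mean of each genotype was taken away, Pearson's r with the cell cycle score over the 16 libraries was 0.90 for Fn1, 0.62 for Snai2, 0.48 for Vim and -0.65 for Zeb1. Snai1 had r of 0.24 and Cdh2 of 0.10. These values describe libraries that share their depth and cell makeup between both measures. *APOE3* female replicate 31, at 19010 CPM of Fn1, had the highest score of its genotype at 6.14, and *APOE4* male replicate 35, at 23141 CPM, had the highest of all at 6.63.

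With the score as a covariate, edgeR called 0 genes of the table for genotype (903 at an unadjusted p under 0.05), transition genes included. Snai2 then had a log2 fold change of 0.26 (adjusted p = 0.720), Vim of 0.09 (adjusted p = 0.641) and Fn1 of -0.02 (adjusted p = 0.967). The score itself differed between the genotypes, so that this fit cannot tell apart genotype from what moves with the score.

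**Figure D4:**
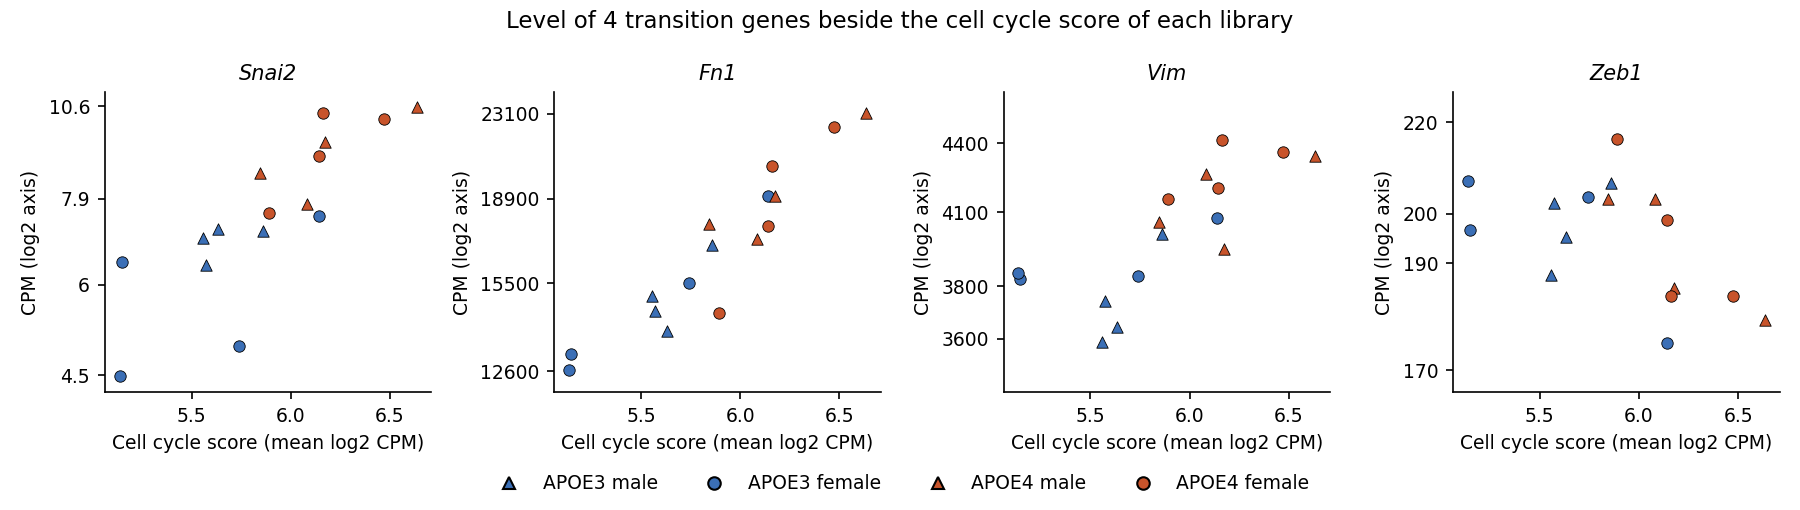
Level of Snai2, Fn1, Vim and Zeb1 (CPM on log2 axes that do not start at 0) against the cell cycle score (mean log2 CPM of 30 genes) in each of 16 libraries, blue for *APOE3* and orange for *APOE4*, triangles for males and circles for females. Within genotypes Fn1 follows the score most closely (r = 0.90 after the genotype means were taken away) and Zeb1 runs the other way (r = -0.65).

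Markers of other cells that express mesenchymal genes gave the following levels. The 8 fibroblast markers summed to 24.9 to 75.4 CPM in *APOE3* and 28.2 to 106 CPM in *APOE4* libraries, with Dpt at 0 in all libraries. Of the 5 tested 1, Fbln1, was called higher (20.0%, beside 6.71% of all genes tested). The 10 pericyte markers summed to 11.7 to 26.8 and 13.7 to 31.6 CPM, and 0 of the 5 tested were called (1 at an unadjusted p under 0.05, and 1 by DESeq2's Wald test). The 6 smooth muscle markers summed to 182 to 336 and 214 to 323 CPM, and 0 of the 4 tested were called (1 at an unadjusted p under 0.05). In mean log2 CPM all 3 lists had a higher mean with *APOE4*, by 0.464 for fibroblast, 0.268 for pericyte and 0.242 for smooth muscle markers, and none passed a two-sided exact permutation test, with p of 0.157, 0.202 and 0.0805. Smooth muscle markers passed in 3 of the 16 comparisons with 1 library left out, with p down to 0.0277. Of the tested markers 4 of 5, 5 of 5 and 3 of 4 had positive estimates, and 4 fibroblast and 3 smooth muscle markers are also on the mesenchymal and matrix list. Their part in the levels of Fn1, Vim and Snai2 was not tested.

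Astrocyte markers had a mean log2 CPM higher by 0.398 with *APOE4* (exact permutation test, p = 0.0356), from 2 tested genes of 8. This passed in 6 of the 16 comparisons with 1 library left out, with p up to 0.0702 in the others. Neuron markers were higher by 0.239 (p = 0.0205 by the exact permutation test), from 3 tested genes of 6, and passed in all 16. Of these 3 genes 2 had estimates higher and 1 lower with *APOE4*, and 0 were called. Microglia markers did not pass (p = 0.729 by the exact permutation test), from Cd68 alone. Brain endothelial markers were lower, at 8.72 ± 0.0562 and 8.63 ± 0.0623 in mean log2 CPM (exact permutation test, p = 0.00839). Of these 14 genes 3 were called lower (21.4%, beside 6.09% of all genes tested). These were the transporters Slc7a5 (log2 fold change -0.48) and Slco1c1 (-0.31) and the lipid transfer protein Pltp (-0.29). Slco1c1 was called in 6 of the 16 fits with 1 library left out, with an adjusted p up to 0.108, and the others in all 16. DESeq2's Wald test called 4 of the 14.

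Genes whose levels followed each called transition gene most closely were sought over all genes tested, by Pearson's r of log2 CPM over the 16 libraries after the mean of each genotype was taken away. For Snai2 these were the kinase gene Stk16 (0.88), the homeobox gene Lhx6 (0.86) and the interleukin-1 receptor gene Il1r1 (0.86). For Fn1 they were Gpx7, an enzyme of the endoplasmic reticulum (0.97), Bex3 (0.96) and the mitotic gene Pimreg (0.95). For Vim they were Akr1c14 (0.84), Gyg, which primes glycogen synthesis (0.83), and the phosphatase gene Dusp10 (0.83). Between the transition genes themselves, Snai2 had r of 0.68 with Fn1 and -0.73 with Zeb1, Zeb1 had -0.78 with Fn1, and Snai2 and Snai1 had -0.05. Values of r as high as these were picked from 12481 genes and are a description.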

How the data were processed

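Poly-A RNA of 16 cultures was sequenced as paired reads of 50 nt from libraries made with 100 ng of RNA and 17 cycles of PCR. The authors deposited raw counts of reads per gene without normalization. The submitters' processing notes name STAR, featureCounts, mm10 and hg38, with versions, annotation and strand setting not given in the sources used here. The kit selected strand. Reads carry no molecular identifiers, so depth speaks for counting error only.

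Gene symbols, positions and exon lengths were taken from GENCODE mouse release 21 (38872 of 39056 mouse identifiers, version numbers ignored). Counts were fitted in R 4.3.3 with edgeR 4.0.16 (filterByExpr by genotype, TMM, quasi-likelihood F test, 12481 genes, threshold 0.05), with limma 3.58.1 and DESeq2 1.42.0 as alternatives. Sexes were compared in a fit of 4 groups or with genotype as a term. The prior count of log2 CPM was 2. Values with 1 number per library were compared by exact permutation in scipy 1.17.1 under Python 3.11.15, and figures were drawn with matplotlib 3.10.9. The paper's main text names no test for these counts. On simulated data, with a log2 change of 1 given to 200 genes, the genotype fit recovered 192 and called 14 others among 12421 genes, and the genotype by sex term recovered 167 and called 5 others among 12419. That change is larger than any estimate for a tested transition gene here. Counts were simulated for each gene on its own, with no variation shared between genes. These rates therefore do not tell how often changes as small as those would be found. No libraries were identical (0 pairs).

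The transition genes and all lists were chosen with earlier results of these data known. The result of 1 marker list is not reported here. Named genes are all transition genes, up to 4 called genes in each direction per list by smallest adjusted p with the largest estimate of the list, and the 3 genes most correlated with each called transition gene. The alternatives tried were normalization by DESeq2's size factors, leaving out the filter on low counts, a minimum of 10 counts per library, a term for sex or for the cell cycle score, the DESeq2 Wald test, limma's voom with sample quality weights, a prior count of 0.5 and each library left out in turn.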

Additional observations from a re-analysis of the deposited data

Results flagged for a closer look

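Among the 8 tested transition genes, each genotype and each genotype and sex was searched for a library far from the others, in 48 partly nested groups, and 2 held such a library. About 1 in 20 groups does so by chance. Cdh5 in *APOE4* males had its lowest library, replicate 38, at 3414 CPM, with the next at 3544 CPM. Vim in *APOE3* females had its highest library, replicate 31, at 4075 CPM, with the next at 3852 CPM. Vim kept its call without that library, and Cdh5 was not called with or without replicate 38.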

How the results depend on the processing

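Snai2, Fn1 and Vim were called under all 6 alternatives without a cell cycle term and in all 16 fits that each left out 1 library. With a term for the cell cycle score 0 genes and 0 transition genes were called for genotype, and these estimates changed sign: Fn1 (-0.0162), Zeb1 (0.0890), Smad3 (0.0129), Tgfbr3 (0.0207), Inhbb (0.130), Krt19 (0.0118), Cd68 (0.101), Pltp (0.0162) and Slco1c1 (0.0903). The cause was not tested.

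Without 1 library the genes called for genotype ranged from 846 (without *APOE4* replicate 41) to 2127 (without *APOE3* replicate 31), with 853 without *APOE3* replicate 30 and 952 without *APOE3* replicate 33, and with 3 transition genes called in each. Within males, 24 genes were called without a filter on low counts, and 0 to 1 with 1 library left out. Within females, 11 were called with at least 10 counts in every library and 366 without a filter, 1 of them a transition gene, and 0 to 879 with 1 library left out, with 0 to 2 transition genes (Snai2 and Fn1, with 879 genes, without *APOE3* replicate 31, and Snai2, with 261 genes, without *APOE4* replicate 35). Without *APOE3* replicate 32 it was 55 genes. For sex, 4 genes were called with at least 10 counts in every library. The difference of the Cdh2 to Cdh5 log2 ratio ranged from -0.154 to -0.101 and that of Snai2 to Snai1 from 0.281 to 0.420.

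Estimates near 0 changed sign with 1 library left out, and none of them was called. In log2 fold change these were Cd68 for genotype (-0.0664 to 0.0199), Cdh2 in males (-0.0142 to 0.0528), Zeb1 (-0.0518 to 0.0291, and 0.000244 with at least 10 counts in every library) and Zeb2 (-0.00947 to 0.170) in females, for the difference between the sexes Zeb1 (-0.0132 to 0.0680), Cdh5 (-0.0480 to 0.0139), Fn1 (-0.134 to 0.0941) and Vim (-0.0486 to 0.00930), and for sex Zeb1 (-0.0233 to 0.0263), Cdh2 (-0.0230 to 0.0138) and Fn1 (-0.0841 to 0.0284). So did the differences of the microglia score (-0.0685 to 0.0173) and of log2 total counts (-0.0131 to 0.0655).

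Smad4 and Smad3 were not called without a filter on low counts (adjusted p = 0.0670 and 0.0609), nor Smad3 and Slco1c1 with sex as a covariate (0.0509 and 0.0538), nor Slco1c1 with limma's voom (0.0510). Twist1 and S100a4 had too few reads for more than large differences to be seen. No paired analysis was possible because the labels give the genotypes no shared replicate numbers.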
